A study of Homo sapiens with 6 samples.

Results

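Integrins are receptors that join a cell to the matrix around it, and laminins are matrix proteins that several of them bind. Described here are 9 genes of these families, chosen by symbol from the table of RBM15 knockout: the integrin subunits ITGA2, ITGA3, ITGA6, ITGAV, ITGB1 and ITGB4, and the laminin chains LAMA5, LAMB3 and LAMC1. All 9 were among the 12793 listed rows, each in 1 row, and all 9 passed the filter that left 11451 genes for testing. RNA was sequenced from 6 libraries of the human colorectal cancer line HCT15, an established line grown in RPMI-1640 with 10% FBS. Of these, 3 carried a control guide (sgctrl, genotype WT) and 3 were labelled RBM15 knockout (sgRBM15), made with CRISPR/Cas9 to ask what RBM15 does within the tumour cells. RBM15 encodes an RNA-binding protein that helps recruit the m6A methyltransferase to its target RNAs. The labels give no guide sequence, no time after editing, and no word on whether the edited cells were 1 clone or a pool.

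An integrin is a pair of an alpha and a beta subunit, and the beta subunit reaches the surface only when paired. The beta 1 subunit (ITGB1) pairs with many alpha subunits, among them alpha 2, which binds collagen and laminin, alpha 3 and alpha 6, which bind laminins, and alpha V, which binds RGD-containing ligands. The beta 4 subunit (ITGB4) pairs only with alpha 6, and that pair anchors epithelial cells to laminin through hemidesmosomes. A laminin is a trimer of an alpha, a beta and a gamma chain: LAMA5 and LAMC1 encode chains of the main laminins under intestinal epithelium, and LAMB3 encodes the beta chain of the anchoring laminin, whose alpha chain is encoded by LAMA3.

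The targeted gene was measured first. Its FPKM were 5.97, 5.89 and 5.51 in the 3 controls, against 17.3, 18.5 and 18.03 where sgRBM15 was labelled. RBM15 mRNA was thus higher, not lower, in these libraries (log2 difference 1.48, SE 0.049, limma adjusted p = 3.88e-06). Insertions or deletions need not lower an mRNA, so this level does not settle whether the labels are right, and every direction below rests on them. Column sums lay between 402288 and 415057 FPKM, read totals could not be recovered, and the depth behind each value is unknown. Of 9 epithelial markers 7 were listed, with sums of 3803 to 3896 FPKM per control and 3481 to 3621 FPKM per library labelled sgRBM15, with 1 higher and 5 lower by the test. KRT8 and KRT18 give most of that sum; the largest falls on the log2 scale were those of VIL1 (-1.89) and CDX2 (-1.06), which encode an intestinal brush border protein and an intestinal transcription factor. Of 8 fibroblast markers only COL1A1 was listed, at 0.84 to 1.41 FPKM, and of 4 endothelial markers none was. Of 5 leukocyte markers CD68 alone was listed, at 2.66 to 3.08 FPKM per control and 6.03 to 7.29 FPKM per library labelled sgRBM15. The part of these markers in the results was not tested. The labels do not say whether libraries of a group are separate cultures; p-values then reflect only the spread among these libraries, which may be technical.

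Differences between the groups were small for these 9 genes. ITGB1 rose by 17.9% in the libraries labelled sgRBM15, whereas ITGB4 fell by 14.5%, LAMB3 fell by 14.9% and ITGA3 fell by 6.31%. The other 5 genes did not pass the test. These are bulk libraries, so a change in the share of cells with a transcript and a change in its amount per cell cannot be told apart. Thus 4 of 9 changed (44.4%, 1 higher and 3 lower) at a limma adjusted p of at most 0.05 over all genes, against 54.5% of all genes tested (25.3% higher and 29.2% lower), so the share lay near the background. The median size of the log2(FPKM + 1) difference, whatever its sign, was 0.092 for the 9 genes and 0.21 for all genes tested. Groups of 3 values did not overlap for 6 of the 9, against 63% of all genes tested.

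**Figure D1:**
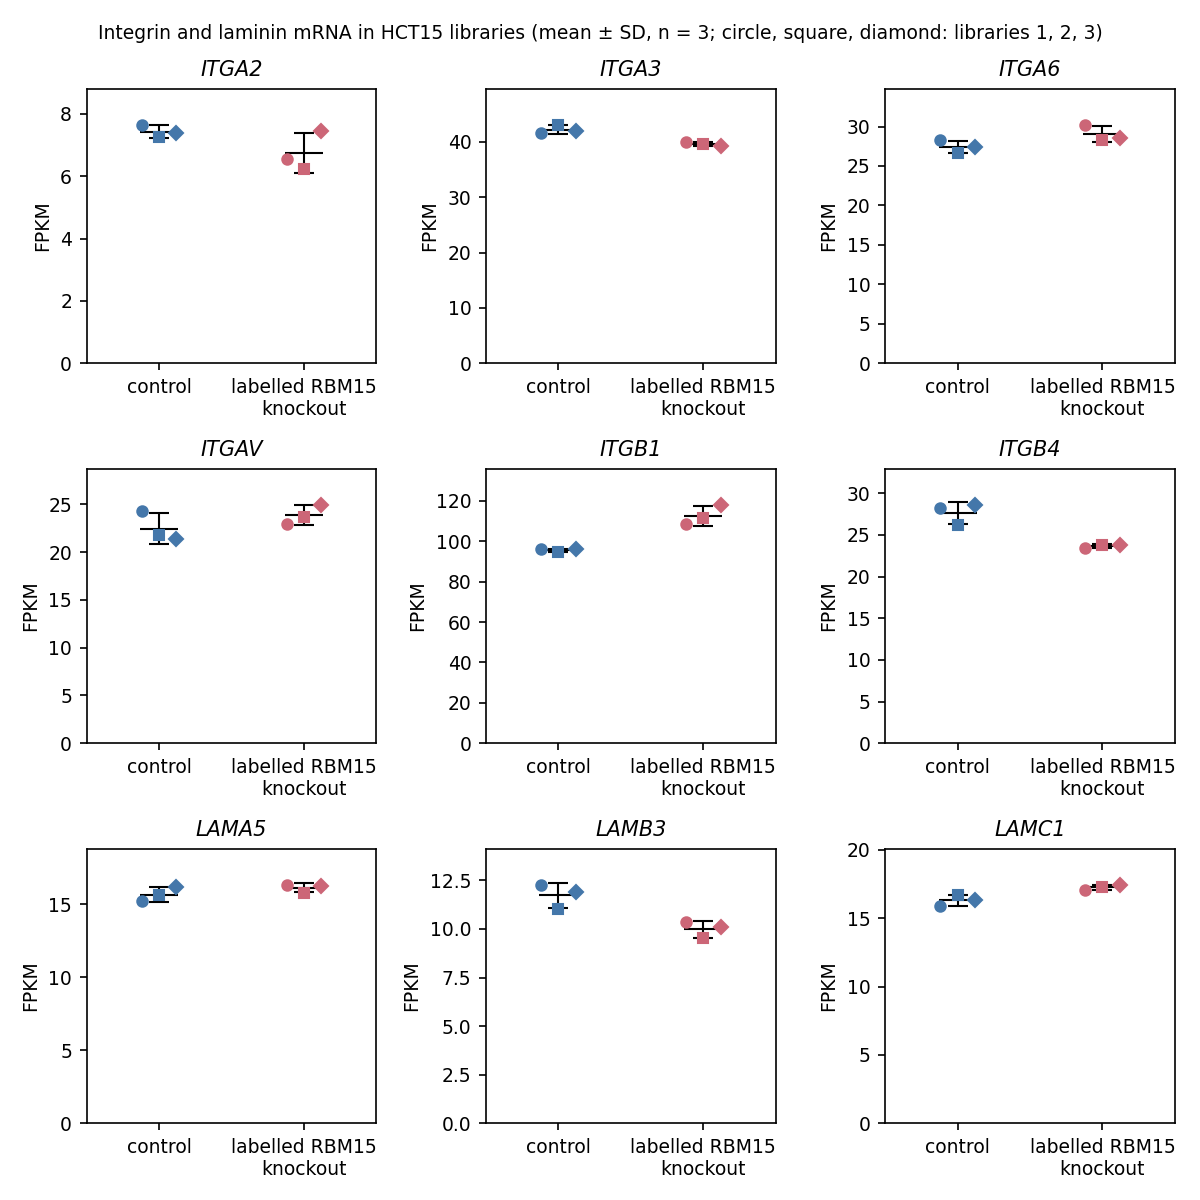
FPKM of the 9 integrin and laminin genes in each of the 6 libraries, by group; markers are libraries 1 to 3, and bars are the mean ± SD of 3 libraries. The groups do not overlap for ITGB1, ITGA6 and LAMC1 (higher under the sgRBM15 label) or for ITGA3, ITGB4 and LAMB3 (lower), and they overlap for ITGA2, ITGAV and LAMA5.

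FPKM is scaled by transcript length, so levels can be ordered between genes. In the controls ITGB1 was the highest of the 9 at 95.6 ± 0.819 FPKM (SD, n = 3), above 93.9% of the genes tested. ITGA3 followed at 42.2 ± 0.755 FPKM, then ITGB4 (27.7 ± 1.32 FPKM) and ITGA6 (27.4 ± 0.78 FPKM), whose values overlapped, and ITGAV (22.5 ± 1.6 FPKM). LAMC1 (16.3 ± 0.406 FPKM) and LAMA5 (15.7 ± 0.499 FPKM) overlapped as well, above LAMB3 (11.7 ± 0.632 FPKM) and ITGA2 (7.43 ± 0.198 FPKM). ITGB4 changed place in the libraries labelled sgRBM15: its 3 values no longer overlapped those of ITGA6 and lay within the range of ITGAV. There LAMC1 (17.1 to 17.4 FPKM) and LAMA5 (15.8 to 16.4 FPKM) no longer overlapped, and the rest of the order was as in the controls.

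ITGB1 (ENSG00000150093), the shared partner of most alpha subunits, lies on the minus strand of chromosome 10 at 32900319 to 33005792 in GRCh38. Control libraries 1, 2 and 3 held 96.0, 94.6 and 96.1 FPKM, and libraries 1, 2 and 3 labelled sgRBM15 held 108, 111 and 118 FPKM. Every library labelled sgRBM15 was above every control, and the spread was wider among them (SD 4.91 against 0.819 FPKM). The log2 difference was 0.23 (SE 0.037, adjusted p = 0.00166), called in all 15 alternative settings (0.2 to 0.26). The 3 genes whose centred log2 profiles over the 6 libraries lay nearest to that of ITGB1 were ABCC4, PHLDA1 and DDB1, at Euclidean distances of 0.027, 0.034 and 0.037. The sequence before the most upstream of 2 RefSeq starts of ITGB1 is shown because this was the only one of the 9 genes called higher. It covers chr10:32958233-32958480, minus strand, 5′ to 3′ (RefSeq, GRCh38.p14), and stops just before an exon of ITGB1 in GENCODE 29. That annotation also holds ITGB1 exons further upstream, so the stretch lies within the annotated span of the gene. Capitals mark GC boxes, GGGCGG on either strand.
ITGB1: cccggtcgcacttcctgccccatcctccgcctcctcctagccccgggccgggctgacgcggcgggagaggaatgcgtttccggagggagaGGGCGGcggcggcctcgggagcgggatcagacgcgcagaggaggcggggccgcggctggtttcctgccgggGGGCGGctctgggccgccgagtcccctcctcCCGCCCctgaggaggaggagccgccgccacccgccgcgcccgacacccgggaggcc
The stretch holds 3 GC boxes. FPKM were deposited per gene, so use of this start or of the other was not measured.

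ITGB4 (ENSG00000132470), the hemidesmosome subunit, occupies 75721328 to 75757818 of chromosome 17, plus strand. Its level was 28.2, 26.2 and 28.6 FPKM in controls 1, 2 and 3, compared with 23.4, 23.8 and 23.8 FPKM under the sgRBM15 label. All 3 of the latter lay below the lowest control, control library 2. The log2 difference was -0.22 (SE 0.043, adjusted p = 0.00488). It was called in all 15 alternative settings, though its size fell to -0.11 with a trend over transcript GC content and length removed (the GC/length trend), a setting added after the data were seen.

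LAMB3 (ENSG00000196878), the beta chain of the anchoring laminin, lies on the minus strand of chromosome 1 at 209614870 to 209652466. Controls 1, 2 and 3 gave 12.3, 11.04 and 11.9 FPKM, whereas sgRBM15 libraries 1, 2 and 3 gave 10.4, 9.51 and 10.1 FPKM. The groups did not overlap, but control library 2 lay close to the highest library labelled sgRBM15. The log2 difference was -0.21 (SE 0.055, adjusted p = 0.0153). The call was lost without control library 1 (-0.18, adjusted p = 0.0519) and once the GC/length trend was removed (-0.14, adjusted p = 0.0705). The sequence before the most upstream of 3 RefSeq starts of LAMB3 is shown beside that of ITGB1, since these were the called genes matched in the promoter table. It covers chr1:209652467-209652675, minus strand, stops just before the annotated span of LAMB3 and is marked in the same way.
LAMB3: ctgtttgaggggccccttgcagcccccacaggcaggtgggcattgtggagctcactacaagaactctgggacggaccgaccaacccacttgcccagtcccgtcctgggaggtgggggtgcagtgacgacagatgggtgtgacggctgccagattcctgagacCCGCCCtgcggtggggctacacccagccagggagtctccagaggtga
The stretch holds 1 GC box, where that of ITGB1 holds 3. Promoter windows of 300 bases, with 50 of them after the start, were found for 7 of the 9 genes, and not for ITGA3 and ITGB4. These genes have 12 windows, some of which share a gene. A GC box was present in 9 of the 12 (6 of the 7 genes) and in 45.0% of all 35116 windows of the same length. The TATA box letters TATAAA were present in 2 of the 12 (ITGA6 and ITGB1) and in 11.5% of all windows. The AP-1 letters TGANTCA were present in 1 of the 12, at another start of LAMB3, and in 7.7% of all windows. Both strands were searched, and a match is a description of the letters only.

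ITGA3 (ENSG00000005884), which pairs with beta 1 as a laminin receptor, occupies 50055968 to 50090481 of chromosome 17, plus strand. Levels of 41.7, 43.1 and 41.9 FPKM in controls 1, 2 and 3 compared with 39.9, 39.6 and 39.2 FPKM in those labelled sgRBM15. The groups did not overlap, and the gap between them was 1.76 FPKM. The log2 difference was -0.092 (SE 0.031, adjusted p = 0.0385). This call was the least stable of the 4: it was lost in 11 of 15 alternative settings, among them each removal of any 1 of the 6 libraries (-0.101 to -0.0775, adjusted p = 0.0627 to 0.116), and the difference was -0.0087 with the GC/length trend removed.

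The other subunits that pair with beta 1 or beta 4 did not pass. ITGA6 (ENSG00000091409; chromosome 2, 172427354 to 172506282, plus strand) measured 28.2, 26.7 and 27.4 FPKM in controls 1, 2 and 3, against 30.2, 28.3 and 28.6 FPKM under the sgRBM15 label. Its groups were apart by 0.052 FPKM, with a log2 difference of 0.079 (95% interval -0.018 to 0.175, adjusted p = 0.145). ITGAV (ENSG00000138448; chromosome 2, 186590065 to 186680901, plus strand) measured 24.3, 21.7 and 21.4 FPKM in controls 1, 2 and 3, against 23.0, 23.7 and 25.0 FPKM under the sgRBM15 label. Control library 1 overlapped the other group, and the log2 difference was 0.085 (95% interval -0.054 to 0.223, adjusted p = 0.257). ITGA2 (ENSG00000164171; chromosome 5, 52989326 to 53094779, plus strand) measured 7.65, 7.26 and 7.39 FPKM in controls 1, 2 and 3, against 6.54, 6.24 and 7.46 FPKM under the sgRBM15 label. Here sgRBM15 library 3 lay among the controls and the other two lay below them. The log2 difference was -0.13 (95% interval -0.287 to 0.036, adjusted p = 0.158), and it was called without sgRBM15 library 3 (-0.19, adjusted p = 0.0313) and once the GC/length trend was removed (-0.22, adjusted p = 0.0156).

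The chains of the main epithelial laminins did not pass either. LAMA5 (ENSG00000130702; chromosome 20, 62307955 to 62367312, minus strand) measured 15.2, 15.6 and 16.2 FPKM in controls 1, 2 and 3, against 16.4, 15.8 and 16.3 FPKM under the sgRBM15 label. The groups overlapped, with a log2 difference of 0.04 (95% interval -0.057 to 0.136, adjusted p = 0.442), and once the GC/length trend was removed the difference was 0.16 (adjusted p = 0.0136). Exons of LAMA5 share 244 bp with those of ADRM1 on the other strand, and the use of strand in read assignment is not stated in the labels. LAMC1 (ENSG00000135862; chromosome 1, 183023460 to 183145592, plus strand) measured 15.9, 16.7 and 16.4 FPKM in controls 1, 2 and 3, against 17.1, 17.3 and 17.4 FPKM under the sgRBM15 label. The groups did not overlap, and the log2 difference was 0.078 (95% interval -0.011 to 0.167, adjusted p = 0.118). LAMC1 was called under median centring (0.11, adjusted p = 0.046) and quantile normalization (0.11, adjusted p = 0.0467), and its sign turned with the GC/length trend removed (-0.018, adjusted p = 0.711).

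**Figure D2:**
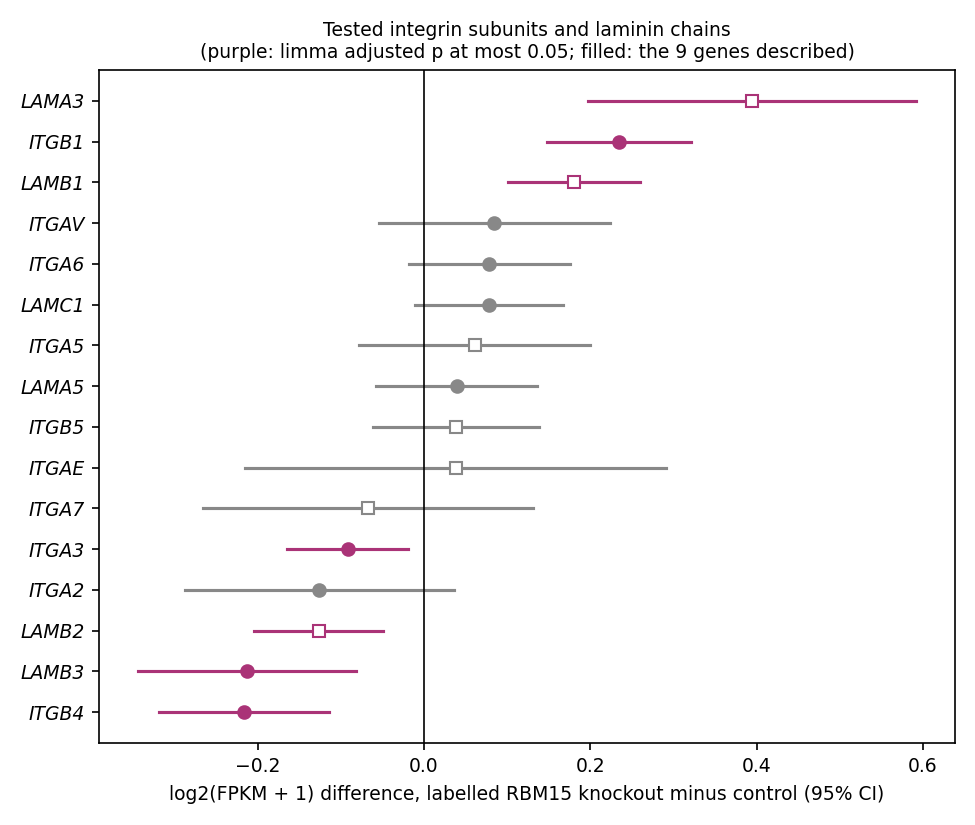
Log2(FPKM + 1) difference, libraries labelled RBM15 knockout minus controls, with its 95% interval from limma, for 16 tested integrin subunits and laminin chains. Filled circles are the 9 genes described, open squares the other 7, and purple marks an adjusted p of at most 0.05; ITGB1 lies at 0.23, ITGB4 at -0.22 and LAMB3 at -0.21.

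Other genes of the families were read from lists of 26 integrin subunits and 11 laminin chains. Beyond the 9, 4 other integrin subunits were tested (ITGA5, ITGA7, ITGAE and ITGB5). Of these 0 changed by limma, with 0 at an unadjusted p under 0.05, and they differed by -0.068 (ITGA7) to 0.061 (ITGA5) on the log2 scale. ITGB5, which pairs with alpha V, was the most abundant of them at 20.4 ± 0.676 FPKM in controls and 20.99 ± 0.631 FPKM under the sgRBM15 label. ITGA1, ITGA10, ITGAX, ITGB6 and ITGB8 averaged under 1 FPKM and were not tested. Of the 3 other laminin chains tested and reported here, 3 changed, where 54.5% of all genes tested did. With 4 integrin subunits and 3 laminin chains, these counts are too small to set the families apart. LAMA3, the alpha partner of LAMB3, rose from 2.98 ± 0.227 to 4.24 ± 0.443 FPKM (log2 difference 0.39, adjusted p = 0.00631). LAMB1 rose from 27.1 ± 0.031 to 30.9 ± 0.757 FPKM, and LAMB2 fell from 22.2 ± 0.0494 to 20.3 ± 0.21 FPKM, a call that was lost with the GC/length trend removed (-0.075, adjusted p = 0.0939).

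Because partner chains assemble with each other, 8 ratios of FPKM were compared; a ratio within a library does not depend on how that library was scaled. With 3 libraries a side an exact permutation test, taken as 2-sided, cannot give a p below 0.1, so none can pass 0.05. The groups did not overlap for 7 of the 8 ratios (exact p = 0.1, 0.114 after Benjamini-Hochberg adjustment over the 8). Taken singly, 63% of all genes tested had groups that did not overlap. The share among ratios of other gene pairs was not measured, so this count is not a result about partner chains. ITGB4/ITGB1 was 0.294, 0.277 and 0.298 in control libraries 1 to 3 and 0.216, 0.214 and 0.201 in the libraries labelled sgRBM15, a log2 difference of -0.46. All 4 alpha subunits were lower relative to ITGB1: the log2 difference was -0.38 for ITGA2, -0.33 for ITGA3, -0.16 for ITGA6 and -0.15 for ITGAV. These 5 ratios share ITGB1 as denominator and are not separate evidence. ITGA6/ITGB4, the ratio of the hemidesmosome pair, was 0.993 ± 0.0322 for controls and 1.23 ± 0.0569 under the sgRBM15 label. LAMB3/LAMA3 was 3.95 ± 0.275 and 2.38 ± 0.321, a log2 difference of -0.74. LAMA5/LAMC1 (0.961 ± 0.027 and 0.934 ± 0.0214, exact p = 0.2) overlapped between groups. A ratio does depend on sequence content where the 2 chains differ in it. On log2(FPKM + 1), the log2 difference was 0.29 for ITGA6/ITGB4, -0.61 for LAMB3/LAMA3 and -0.039 for LAMA5/LAMC1. With the GC/length trend removed on that same scale, these became 0.12, -0.44 and 0.18, so the sign of LAMA5/LAMC1 turned. The 5 ratios over ITGB1 kept their sign but moved in size. ITGB4/ITGB1 went from -0.45 to -0.35 and ITGA3/ITGB1 from -0.33 to -0.24. ITGA2/ITGB1 went from -0.36 to -0.45, ITGA6/ITGB1 from -0.16 to -0.22 and ITGAV/ITGB1 from -0.15 to -0.22.

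**Figure D3:**
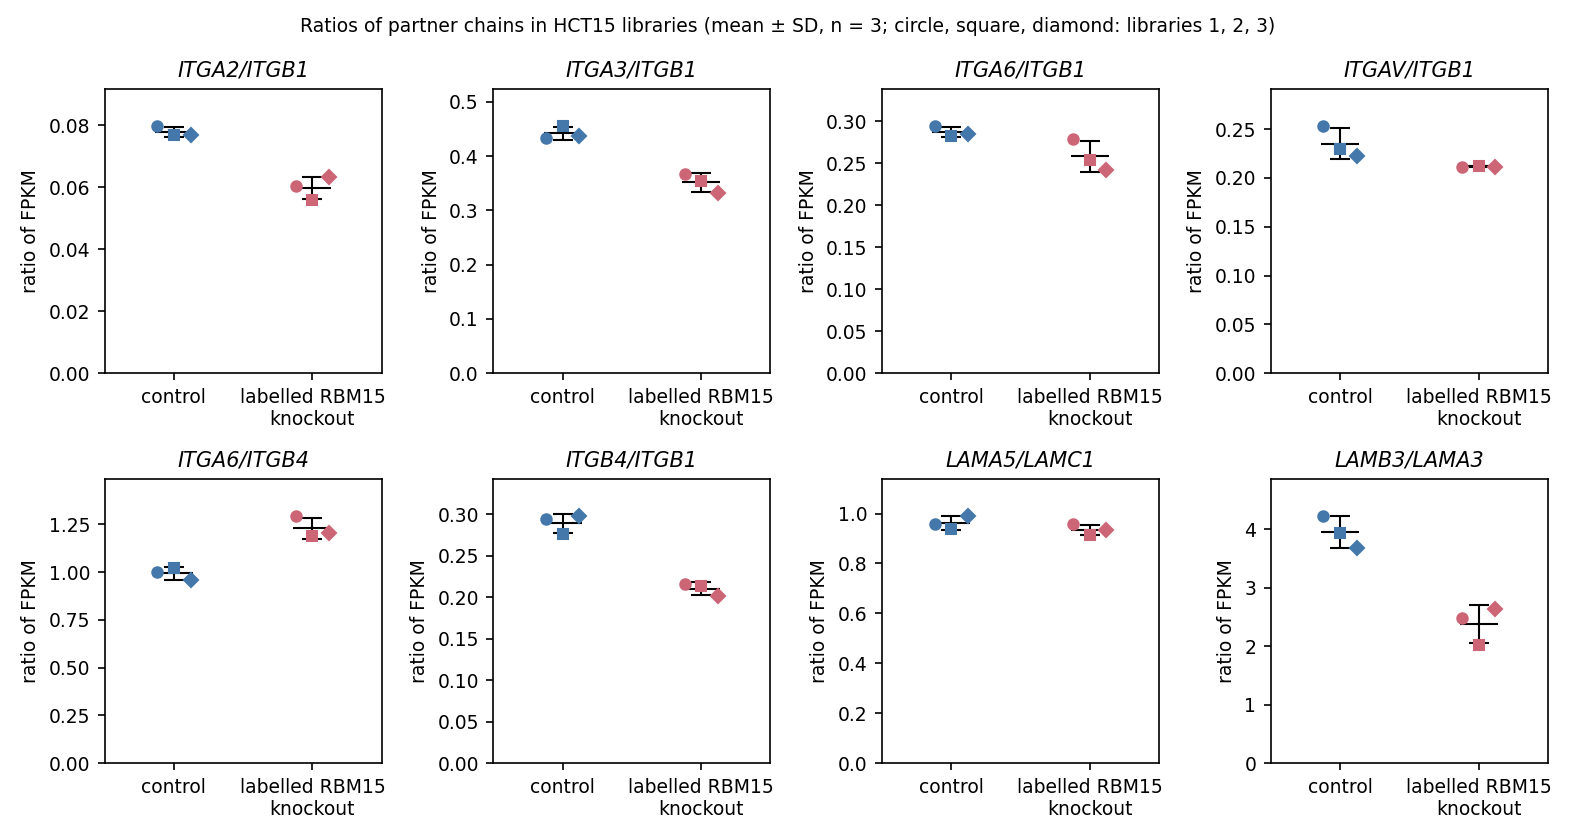
Ratio of the FPKM of 2 chains in each of the 6 libraries, by group. The chains assemble together or, for ITGB4/ITGB1, share alpha 6 as a partner. Markers are libraries 1 to 3, and bars are the mean ± SD of 3 libraries. The 5 ratios over ITGB1 and LAMB3/LAMA3 are lower in all 3 libraries labelled sgRBM15 than in every control, ITGA6/ITGB4 is higher, and LAMA5/LAMC1 overlaps.

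Genes that work with these receptors were counted in 3 further lists, to be read against the 54.5% of all genes that changed. The lists were chosen with earlier results of these data known, so a share above 54.5% is not a result about a list. With the GC/length trend removed, the matrix, hemidesmosome and plaque lists had 11, 10 and 24 called genes, where 9, 12 and 28 were as reported. Of 11 tested genes among other matrix ligands, 7 fell and 2 rose (81.8%, median log2 difference -0.3). HSPG2, which encodes the basement membrane proteoglycan perlecan, fell from 7.03 ± 0.204 to 2.85 ± 0.206 FPKM. CCN2, a secreted matrix protein that integrins bind, fell by 0.71 on the log2 scale and LTBP1, which binds latent TGF-beta, by 0.59. THBS1, which encodes thrombospondin 1, rose by 0.71. FN1, the fibronectin gene, averaged 0.174 FPKM and was not tested.

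Of 15 tested genes of hemidesmosomes and membrane partners, 5 rose and 7 fell (80%, median log2 difference -0.13). CD9, a tetraspanin that associates with beta 1 integrins, fell from 318 ± 22.0 to 234 ± 12.8 FPKM. BCAM, a receptor of laminin alpha 5, fell by 0.39 on the log2 scale (-0.21 with the GC/length trend removed). The heparan sulfate proteoglycan gene SDC1 rose by 0.39. CD47 fell by 0.38, a call lost without control library 1 (adjusted p = 0.0505), control library 2 (0.0554) or sgRBM15 library 2 (0.0529). The following 2 genes were chosen after their values were seen, for their place beside ITGB4. PLEC, which encodes the linker plectin between beta 4 and keratins, rose from 20.6 ± 0.212 to 25.9 ± 0.686 FPKM. CD151, a tetraspanin that binds alpha 3 and alpha 6 integrins, stood at 113 ± 0.666 and 103 ± 5.86 FPKM (log2 difference -0.13, adjusted p = 0.0355). That call was lost in 7 of 15 alternative settings, among them each removal of a control library (adjusted p = 0.0741 to 0.0843), and the sign turned with the GC/length trend removed (0.11, adjusted p = 0.0289).

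Of 39 tested genes of the adhesion plaque and of integrin activation, 16 rose and 12 fell (71.8%, median log2 difference 0.085). CAV1, which encodes caveolin 1, rose from 16.6 ± 0.208 to 30.6 ± 1.69 FPKM. TNS4, a tensin, rose from 4.31 ± 0.311 to 8.14 ± 0.347 FPKM. ITGB1BP1, whose product binds the beta 1 tail and holds integrins inactive, rose from 25.4 ± 2.9 to 39.1 ± 5.94 FPKM. The paxillin relative LPXN fell by 0.61 on the log2 scale at a low level, from 1.78 to 0.823 FPKM, and by 1.06 with a pseudocount of 0.1.

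**Figure D4:**
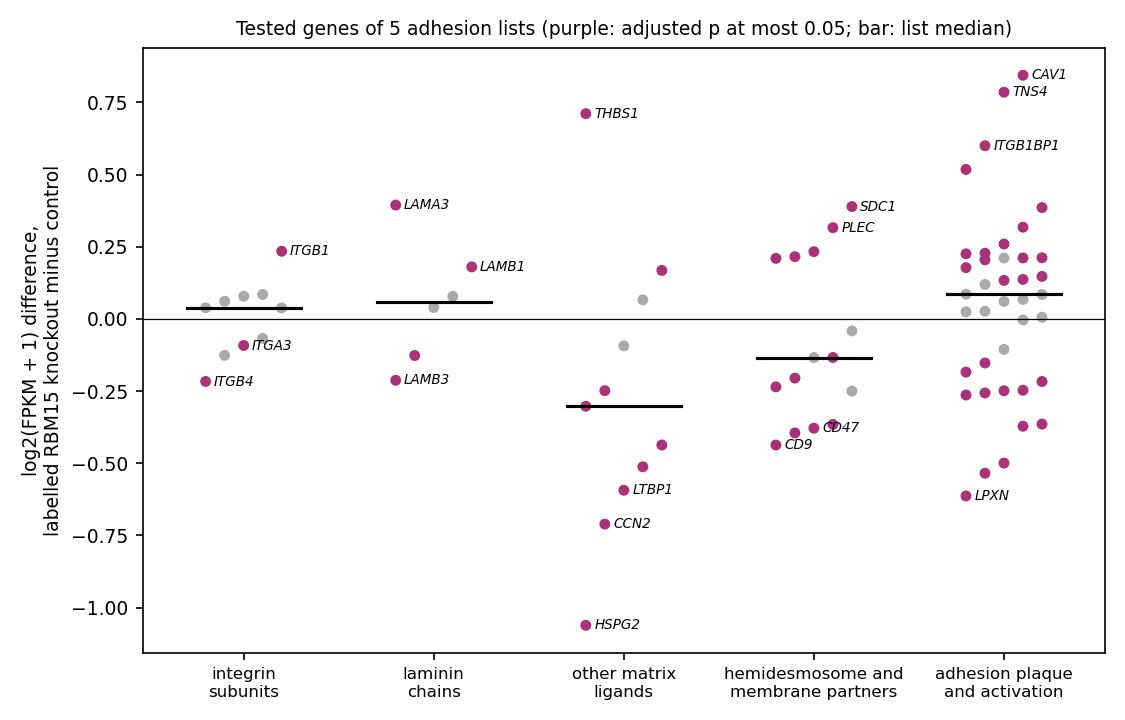
Log2(FPKM + 1) difference, libraries labelled RBM15 knockout minus controls, for the tested genes of 5 adhesion lists; each point is a gene, purple marks an adjusted p of at most 0.05, and bars are list medians. Integrin subunits and laminin chains lie between -0.22 (ITGB4) and 0.39 (LAMA3), and the other lists reach from -1.06 (HSPG2) to 0.84 (CAV1).

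The 9 genes differ in a feature the choice did not use, the GC content of the longest coding transcript. ITGAV (38.3%), ITGB1 (40.0%), ITGA2 (40.2%), ITGA6 (42.9%) and LAMC1 (48.7%) lay below the median of 49.0% of the listed genes. LAMB3 (58.9%), ITGA3 (60.9%), ITGB4 (63.7%) and LAMA5 (66.4%) lay above it. The 3 genes called lower are thus among the 4 above the median, and the gene called higher is below it. Genes not called were divided otherwise: ITGA2, below the median, differed by -0.13, and LAMA5, above it, by 0.04. ITGA6, ITGAV and LAMC1, below the median, differed by 0.079, 0.085 and 0.078. In length of the same transcript all 9 lay above the median of 3399 bases of the listed genes. The called genes had 3784 (ITGB1), 4305 (LAMB3), 4888 (ITGA3) and 5919 bases (ITGB4). Those not called had 5618 (ITGA6) to 11426 bases (LAMA5). Across 11093 tested genes with a known transcript, the log2 difference correlated with GC content at a Spearman rho of -0.197 and with transcript length at 0.231, as a description, since genes are not replicates. The alternative setting removed the trends over GC content and length together, so the part of either alone was not tested. In that setting ITGB1 (0.23, adjusted p = 0.00103) and ITGB4 (-0.11, adjusted p = 0.0421) were called, LAMB3 and ITGA3 were not, and ITGA2 and LAMA5 were.

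**Figure D5:**
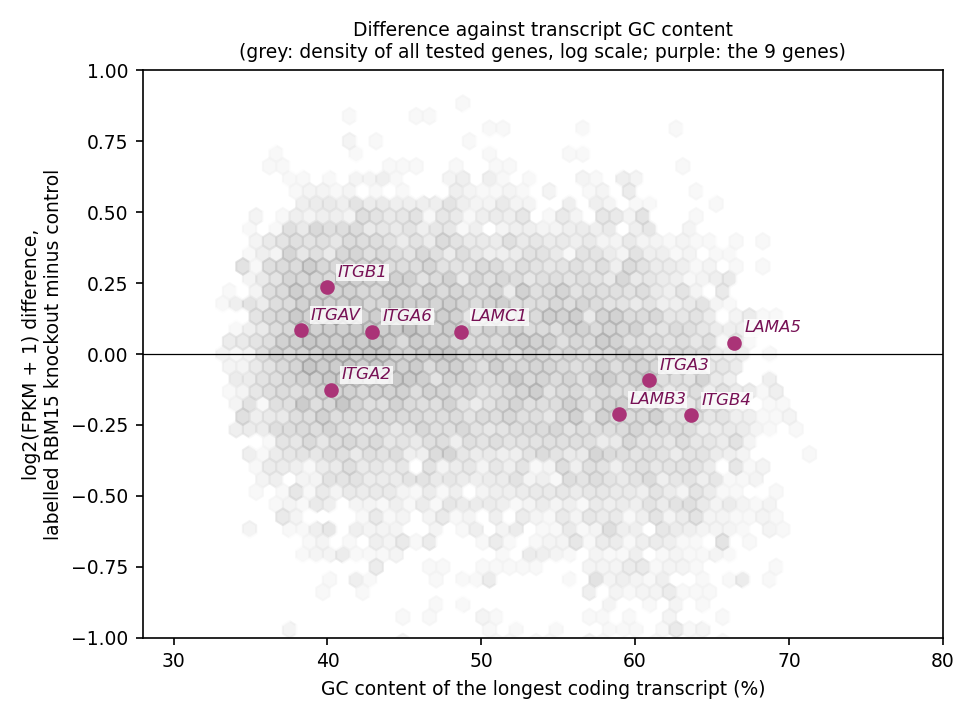
Log2(FPKM + 1) difference, libraries labelled RBM15 knockout minus controls, against the GC content of the longest coding transcript; grey shows the density of tested genes on a log scale, within differences of -1 to 1, and purple points are the 9 genes. Of the called genes, ITGB4, LAMB3 and ITGA3 lie at 58.9% to 63.7% GC and below 0, and ITGB1 lies at 40.0% GC and above 0. Of those not called, ITGA2 (40.2%) lies below 0, and LAMA5 (66.4%), ITGA6, ITGAV and LAMC1 lie above 0.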

How the data were processed

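RNA-seq of 3 control and 3 libraries labelled RBM15 knockout was deposited as 1 table. The authors deposited FPKM per gene, per the file headers; HISAT2 2.2.1, StringTie 2.0.4 and hg38 are named in the submitters' processing notes. The annotation, strand setting and row filter: not given in the sources used here. Libraries were grouped by title. Read steps were searched for in values below 0.5 FPKM: at most 0.93% of ratios between libraries fell within a window 0.1% wide, so reads were not recovered.

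The test took genes averaging 1 FPKM or more. limma 3.58.1 (R 4.3.3) was fitted to log2(FPKM + 1), with a variance trend and no covariates. P-values were 2-sided and Benjamini-Hochberg adjusted over 11451 genes, with a threshold of 0.05. Log2 differences on that scale understate the change of low genes. The fit was tested on simulated data of this comparison with changes larger than those of these 9 genes. The 9 genes, the lists and the ratios were chosen with earlier results of these data known. Named genes were the 9, RBM15, every tested integrin and laminin gene (except 1 that is not reported here, with its ratio), up to 4 called genes per other list by size of difference and 3 nearest profiles to the gene with the largest difference; PLEC, CD151, VIL1 and CDX2 were added after their values were seen. Alternatives were another pseudocount, other filters and scalings, no variance trend, a replicate block and leaving out each library. Removal of a trend over GC content and length (GC/length trend; natural splines, GENCODE 29 transcripts, the longest coding one per gene) was chosen after seeing the data. Coordinates are from GENCODE 29 (GRCh38) and promoters from RefSeq (GRCh38.p14). Ratios used scipy 1.17.1, tables pandas 2.3.3 and figures matplotlib 3.10.9 (Python 3.11.15).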

Additional observations from a re-analysis of the deposited data

How the results depend on the processing

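Over all genes, the number called stayed within 1.5 times that reported in each of 15 alternative settings, from 5451 to 5646 without 1 library. Genes higher under the sgRBM15 label were 46.4% of those called as reported, but 51.6% under median centring, 53.8% under quantile normalization and 55.9% with the GC/length trend removed. ITGB1 and ITGB4 were called in all 15 settings, LAMB3 in 13, ITGA3 in 4, ITGA2 and LAMC1 in 2, LAMA5 in 1, and ITGA6 and ITGAV in 0. Of the 9 genes, 2 to 4 were called without 1 library, with 1 higher each time and 1 to 3 lower; the 2 came without control library 1, where only ITGB4 was lower. The number higher was 2 under median centring, under quantile normalization (LAMC1 added in both) and after removal of the GC/length trend (LAMA5 added); the cause was not tested. Without 1 library, 47 to 53 of the listed partner and family genes, the 9 included, were called, where 56 were as reported. Over all genes the matching counts were 5451 to 5646, where 6245 were as reported. Without 1 library the log2 difference of RBM15 was 1.45 to 1.51, and 7 to 8 ratios had groups apart. Among 21 other named genes, 293 of 309 results kept side and direction and 11 lost their call. The sign turned for CD151 (0.11) and ITGA7 (0.030) when the GC/length trend was removed, for ITGA7 (0.050) under quantile normalization, and for ITGAE without control library 3 (-0.031) or sgRBM15 library 2 (-0.052). Removal of that trend also turned LAMC1 (-0.018) and the ratio LAMA5/LAMC1 (0.18), and 8 ratios then had groups apart. Over the genes tested, deviations of same-numbered libraries correlated at -0.035, -0.037 and 0, and 0 of 6 libraries correlated best with their own number. No effect shared by replicate number was thus seen over those genes. This does not show whether same-numbered libraries were handled together. A replicate block gave 5782 called genes and 3 of the 9, without ITGA3. On the TPM scale the same filter and pseudocount of 1 act on other units, and 12349 genes were tested. Depth is unknown, so precision rests on 3 libraries per group.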
